A study of Homo sapiens with 6 samples.

Results

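The suppressors of cytokine signalling are a small gene family, SOCS1 to SOCS7 and CISH, whose levels were followed here in 3 lung cancer cell lines. All 8 symbols were found, each with 1 probe set of the array, among 17687 named genes. The rule for the members is their gene name, and the family was picked with earlier results of these data known. NCBI's gene numbers for them are 8651 for SOCS1, 8835 for SOCS2, 9021 for SOCS3, 122809 for SOCS4, 9655 for SOCS5, 9306 for SOCS6, 30837 for SOCS7 and 1154 for CISH. Each of 6 Clarion S arrays held the total RNA of 1 line in 1 condition. The epidermal growth factor receptor (EGFR) is mutated in the lung cancer lines PC-9 and HCC827, and each gave an array after 6 hours with 0.01 µM erlotinib, an inhibitor of the EGFR kinase, and a control array. H322 carries EGFR in its wild-type form, and gave an array after 6 hours with the ligand EGF, written as 100 µg/ml in the labels, and a control array. The labels describe a medium with tumour necrosis factor alpha and do not say whether the control cultures had it too, so its effect and that of erlotinib or EGF cannot be told apart if they did not.

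SOCS proteins end the signal of cytokine receptors. A cytokine brings Janus kinases (JAK) together at its receptor, these phosphorylate STAT transcription factors, and STATs switch on SOCS genes, whose products return to the receptor. Each protein has an SH2 domain, which binds phosphorylated tyrosines, and a SOCS box, which recruits elongins and a cullin to form a ubiquitin ligase. SOCS1 and SOCS3 also block the JAK enzyme directly. CISH and SOCS2 are classical targets of STAT5 and restrain growth hormone, prolactin and interleukin signals, while SOCS4 to SOCS7 have been tied to receptor tyrosine kinases such as EGFR, KIT and the insulin receptor and to their adaptors.

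Because CISH is a textbook STAT5 target, its promoter is shown, taken from the table of RefSeq promoters (GRCh38.p14), which held windows of 250 bases before to 50 after the start for 5 of the 8 members (SOCS1, SOCS3, SOCS4, SOCS6 and CISH, with 2 windows for SOCS3). The window of CISH lies at chr3:50611725-50612024 on the minus strand. Capitals mark matches to TTCNNNGAA, the core that STAT dimers bind, which reads the same on both strands.
CISH: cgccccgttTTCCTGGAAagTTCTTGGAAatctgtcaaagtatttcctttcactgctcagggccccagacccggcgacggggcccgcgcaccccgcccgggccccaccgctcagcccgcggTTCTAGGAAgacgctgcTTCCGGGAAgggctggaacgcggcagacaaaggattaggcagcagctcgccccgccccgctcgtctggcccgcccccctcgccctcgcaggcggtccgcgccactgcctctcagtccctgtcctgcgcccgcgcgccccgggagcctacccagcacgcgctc

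The CISH window held 4 matches, whose first bases lay at -241, -230, -129 and -112 from the start. At least 1 match was present in 7.66% of the 35116 promoter windows listed there, and 4 or more in 7 of them. The other 5 windows of members held none. The core for interferon regulatory factors, 2 runs of GAAA with 2 bases between them, was searched on both strands and found once, in the SOCS1 window at chr16:11256155-11256454 on the minus strand, as GAAAGAGAAA with its first base at -113. It was present in 3.57% of all windows. CCGGAAG, the core of ETS factors, matched the CISH window once, on the other strand and overlapping the match at -112, and 10.3% of all windows hold it. The STAT6 core, TTC and GAA with 4 bases between them, and TGANTCA, the AP-1 core, matched no window of a member, against 6.44% and 7.71% of all windows. A match is a stretch of letters and does not show binding in these cells.

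Which members were on at all was read against the 612 negative control probe sets of each array. Their 95th percentile lay between intensities of 120.4 and 176.2, and 48.8% to 52.4% of the genes on an array lay above it. SOCS4, SOCS5 and SOCS6 lay above it throughout. SOCS2 exceeded it in PC-9 and HCC827 with and without erlotinib, SOCS7 on the 4 arrays of HCC827 and H322, and CISH on the HCC827 control array only. SOCS1 and SOCS3, the pair that inhibits JAK directly, were above it on no array. Precision is set by how few arrays there are: each line has 1 array per condition, so a change within a line has no replicate check, and PC-9 and HCC827 are the 2 replicates of the erlotinib comparison.

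**Figure D1:**
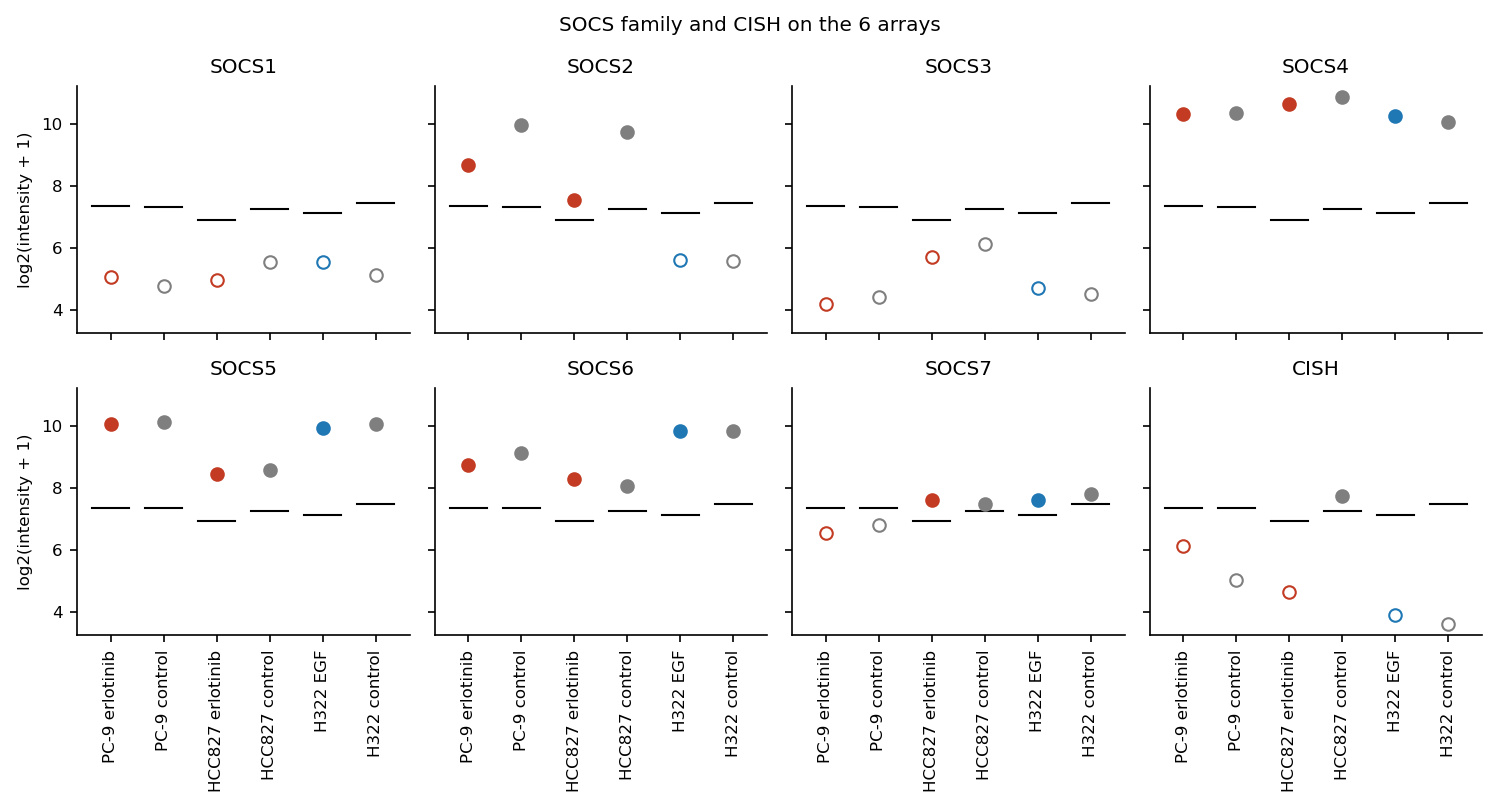
Level of each member on the 6 arrays, as log2(intensity + 1), with erlotinib in red, EGF in blue and controls in grey. Black bars give the 95th percentile of the negative controls of that array, and open points lie below it: SOCS2 was filled in PC-9 and HCC827 and open in H322, and CISH was filled on the HCC827 control array only.

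SOCS2, a brake on growth hormone signalling, was the member that fell with erlotinib. Its intensity was 409.7 in PC-9 with erlotinib, against 1008 in the PC-9 control, a 2.46-fold lower level. In HCC827 it was 188.0 with erlotinib and 861 in the control, a 4.56-fold lower level. All 4 signals were above the negative controls, and both erlotinib arrays lay below both control arrays, a pattern that 11.2% of all genes share. The mean log2 change was -1.74 ± 0.27 (limma's moderated SE, n = 2 lines; 95% interval -2.38 to -1.11), or 3.35-fold, with a limma adjusted p of 0.0345 over all genes. SOCS2 was the 51st lowest of 17687 genes by mean change, and the 41st lowest of the 162 genes that fell past the threshold of 0.05. By line it was the 196th lowest in PC-9 and the 37th lowest in HCC827. Among the 612 negative control probe sets, 38 changed as low as SOCS2 in PC-9 and 19 in HCC827. SOCS2 was brighter than 96.4% to 98.9% of these probe sets on the 4 arrays. The counts therefore come mostly from dimmer signals and give no chance rate at the level of SOCS2.

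The call for SOCS2 was close to its threshold. It had an adjusted p of 0.0559 in limma when only genes above the negative controls were tested, 0.14 with 1 common prior spread for genes of every level, and 1 without cell line as a block. The other 4 of 7 alternatives called it. They include the setting with dim signals set to background. There, genes dim on all 4 arrays share 1 mean log2 change, -0.17 for SOCS1 and SOCS3 alike. These shared values enter the spread estimate, so the call in that setting is not separate support.

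SOCS2 also separated the lines. In H322 it stood at 47.7 with EGF and 47.5 in the control, both below background, and no fold can be given. The control levels of PC-9 and HCC827 were 1.17-fold apart, and they were at least 5.70-fold and at least 4.86-fold above the H322 control, whose own background sets these bounds. With erlotinib SOCS2 in PC-9 was still at least 2.32-fold above the H322 control, and in HCC827 at least 1.07-fold. These differences between lines rest on 1 array each and were not tested.

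Of the 8 members 1, SOCS2, was called with erlotinib, in a comparison that called 1.48% of all genes in either direction 0.916% as lower and 0.565% as higher. The other 7 did not pass. Lower values in both lines were seen for 4 members (SOCS2, SOCS3, SOCS4 and SOCS5), a sign shared by 29.6% of all genes, and opposite signs for the other 4, as for 40.4% of all genes. No member was higher in both lines, as 30% of all genes were. The median change of the 8 members was -0.14 on the log2 scale, beside 0.00 for all genes. With the sign left aside, the median size of the change was 0.14 for the members and 0.20 for all genes.

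CISH, the STAT5-induced inhibitor whose promoter is shown above, could be read on 1 array only. Its intensity in HCC827 was 23.8 with erlotinib and 212 in the control. Only the control signal exceeded the background, above 96.2% of the negative controls of its array, so the level was at least 1.75-fold lower with erlotinib. The signals as read differ by -3.10 on the log2 scale, a value that rests on a reading below background. In PC-9 CISH read 69.1 with erlotinib and 31.3 in the control, and in H322 13.8 with EGF and 11.2 in the control. Neither pair reached the negative controls, and a fold would have no base. Over both EGFR-mutant lines the mean change was -0.99 ± 0.81 (limma's moderated SE, n = 2 lines), with a 95% interval of -2.88 to 0.90 and a limma adjusted p of 0.661. With dim signals set to background it was -0.40 (limma adjusted p = 0.728). SOCS2 was at least 2-fold lower in HCC827, where 1.92% of all genes met that rule and 4.49% changed 2-fold in either direction, and CISH met it only on its signals as read. SOCS2 alone met it in PC-9, where 1.78% were lower and 2.7% changed either way.

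**Figure D2:**
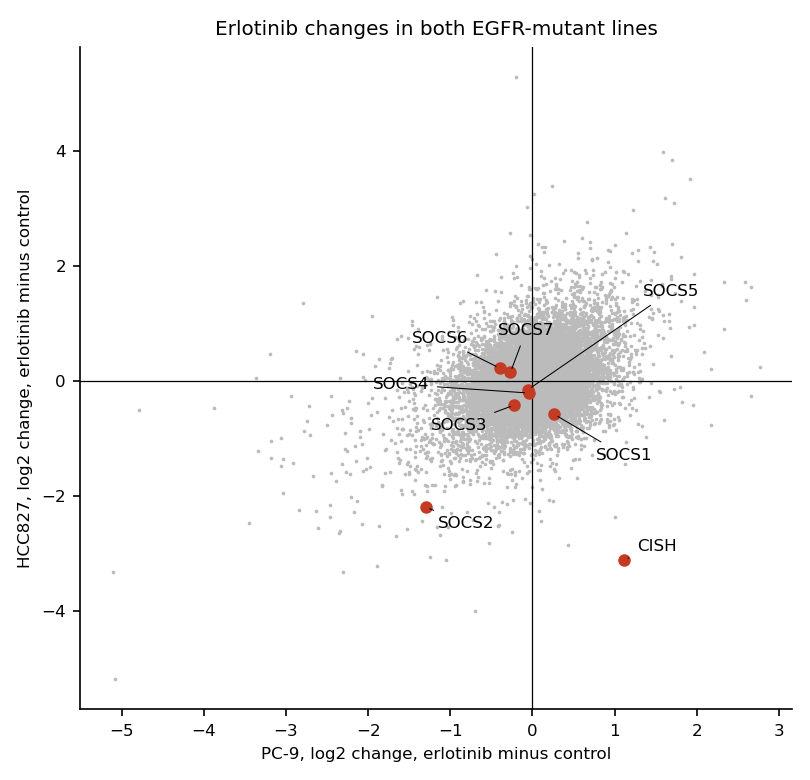
Log2 change with erlotinib in PC-9 (horizontal) and HCC827 (vertical) for all 17687 genes (grey) and the 8 members (red). SOCS2 lies low on both axes, at -1.30 and -2.19, while CISH lies at 1.12 and -3.10, with only its HCC827 control signal above the negative controls.

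SOCS4 and SOCS5 are close relatives that have been linked to the degradation of EGFR. SOCS4 had an intensity of 1286 in PC-9 with erlotinib and 1327 in the PC-9 control. In HCC827 the values were 1630 with erlotinib and 1881 in the control, and in H322 they were 1238 with EGF and 1088 in the control. No pair was more than 1.15-fold apart, and the mean change with erlotinib was -0.13 ± 0.18 (limma's moderated SE), with a 95% interval of -0.55 to 0.30, or 1.09-fold, and a limma adjusted p of 0.839. SOCS5 had 1075 with erlotinib and 1114 in the control of PC-9, 347.7 and 385.0 in HCC827, and 983.6 with EGF and 1074 in the control of H322. Its mean change was -0.10 ± 0.21 (interval -0.59 to 0.39, limma adjusted p = 0.894). SOCS5 differed more between lines than with treatment: the HCC827 control was 2.89-fold below the PC-9 control and 2.78-fold below the H322 control, while the largest change with treatment was 1.11-fold. Neither interval reaches the mean change of SOCS2, but their width comes mostly from the spread of other genes. Neither shows that the gene stayed the same.

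SOCS6, which binds KIT and insulin receptor substrates, had an intensity of 426.9 in PC-9 with erlotinib and 562.6 in the control. The order was opposite in HCC827, with 311.4 with erlotinib and 266.3 in the control. Its changes were 1.32-fold lower and 1.17-fold higher, the mean was -0.09 ± 0.26 on the log2 scale, and the limma adjusted p was 0.927. In H322 it was 923.4 with EGF and 919.8 in the control, the highest readings of SOCS6. The control arrays ran from H322 through PC-9 to HCC827, H322 being 1.63-fold above PC-9 and 3.44-fold above HCC827.

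SOCS7, which binds the adaptor NCK, read near background. It read 91.8 in PC-9 with erlotinib and 110.8 in the control, both below the negative controls. In HCC827 it read 196.4 with erlotinib and 176.7 in the control, and in H322 196.4 with EGF and 224.1 in the control. Its mean change with erlotinib was -0.06 ± 0.27 (limma adjusted p = 0.958), and with EGF it was 1.14-fold lower. The H322 control was at least 1.39-fold above the PC-9 control.

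SOCS1 and SOCS3, the inhibitors of JAK itself, have no level that can be compared. SOCS1 ranged from 26.8 to 46.3 over the 6 arrays and SOCS3 from 17.6 to 69.9. Their mean log2 changes with erlotinib were -0.16 ± 0.29 and -0.32 ± 0.25, with limma adjusted p of 0.88 and 0.653, on signals that were all below the negative controls. SOCS3 read 52.2 in HCC827 with erlotinib and 69.9 in the HCC827 control, and between 17.6 and 25.5 on the other 4 arrays.

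EGF in H322 moved no member by 2-fold, and 0.187% of all genes passed that rule. There is no replicate and no test. Of the 4 members above background on both H322 arrays, SOCS4 was 1.14-fold higher with EGF, SOCS6 differed by 0.01 on the log2 scale, and SOCS5 and SOCS7 were 1.09-fold and 1.14-fold lower. SOCS2 and CISH, which were lower with erlotinib in HCC827, were below the negative controls with EGF and in the control, and their response to EGF cannot be read from these arrays. DUSP6, a phosphatase gene induced by ERK signalling, served together with SPRY4 as a check of the treatments. DUSP6 was at least 9.57-fold lower with erlotinib in PC-9, 9.91-fold lower in HCC827 and 1.70-fold higher with EGF in H322. SPRY4 dropped to background with erlotinib in PC-9, by at least 1.02-fold. Its drop in HCC827 was 2.31-fold, and EGF raised it 1.24-fold in H322. The mean log2 change of SPRY4 with erlotinib, -2.28 ± 0.47, did not pass (limma adjusted p = 0.0664).

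**Figure D3:**
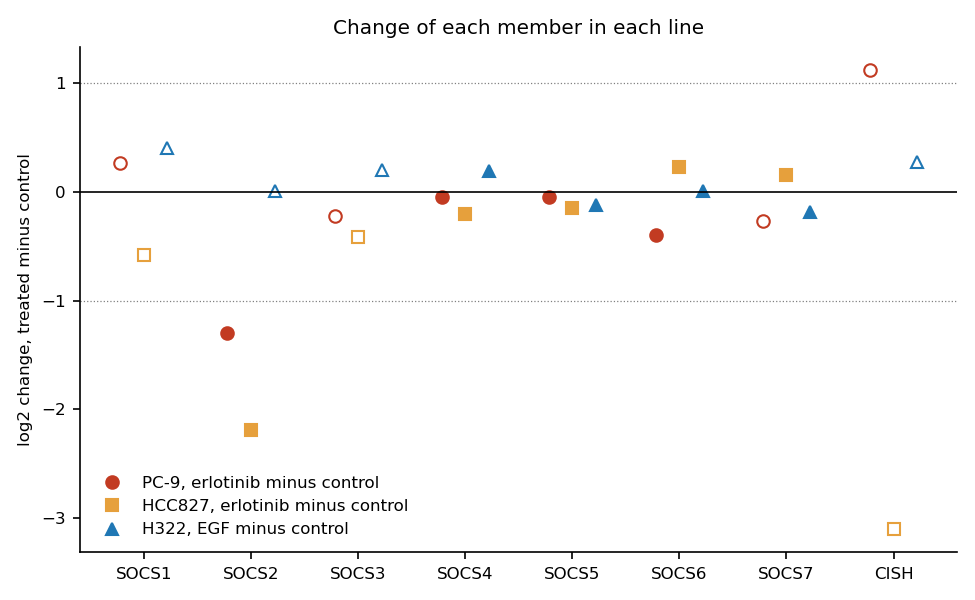
Log2 change of each member, treated minus control, in PC-9 (red circles) and HCC827 (orange squares) with erlotinib and in H322 with EGF (blue triangles). Open symbols have at least 1 of their 2 signals below the negative controls, and dotted lines mark 2-fold: filled symbols beyond 2-fold belong to SOCS2, at -1.30 in PC-9 and -2.19 in HCC827.

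Other genes whose level followed a member over the 6 arrays were sought among the 6730 genes that ranged over at least 1 on the log2 scale and lay above the negative controls on at least 3 arrays. The 6 arrays are 3 lines, so these correlations mostly order the lines and are given as a description. Closest to SOCS2 were ACOT9, an acyl-CoA thioesterase (Pearson r = 0.996), SLC35B4, a nucleotide sugar transporter (r = 0.992), and ZC3HAV1L (r = 0.990). With erlotinib ACOT9 had log2 changes of -0.47 in PC-9 and -0.76 in HCC827, SLC35B4 had -1.13 and -1.14, and ZC3HAV1L had -1.10 and -1.37. SOCS5 was followed most closely by RNF6, DNAJC15 and CSAG1 (r = 0.998, 0.998 and 0.997). CSAG1 and DNAJC15 were below the negative controls in HCC827, with CSAG1 at 4.37 with erlotinib and 4.50 in the control on the log2 scale. The levels of SOCS2 and SLC35B4 in H322 and of SOCS7 and GPC6 in PC-9 that enter these correlations are background readings too. So are those of ZC3HAV1L in the H322 control and of RELCH in PC-9 with erlotinib. C2CD2, PDP1 and ADD1 came closest to SOCS6 (r = 0.998, 0.997 and 0.997), and RELCH, GPC6 and STK17B to SOCS7 (r = 0.995, 0.993 and 0.992). Many genes came nearly as close: r was above 0.95 for 85 genes with SOCS2, 303 with SOCS5, 274 with SOCS6 and 301 with SOCS7. Of the pairs among these 4 members SOCS5 and SOCS6 were most alike (r = 0.792), and SOCS2 ran against SOCS6 (r = -0.714) and SOCS7 (r = -0.664).

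The genes around the SOCS proteins were taken from 8 lists of the JAK-STAT pathway by role, 138 measured genes in all. With erlotinib 6 of them fell, 1 rose and 131 did not pass, so that 5.07% were called beside 1.48% of all genes. The count of 7 was 2 with an offset of 16 or with dim genes left out, 0 with no trend of the spread or no block for the line, and 13 to 20 in the other alternatives (limma). The lists were drawn up with earlier results of these data known, and some of these genes, such as IL6 and LIF, were in view then.

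Ligands and receptors held 4 of the 7 calls. Of 22 measured cytokine ligands 2 fell, 20 did not pass, and 17 were above the negative controls on no array. LIF, a ligand of the gp130 receptors whose signal SOCS3 ends, was 195.1 with erlotinib and 1081 in the control of PC-9. In HCC827 it was 103.0, below the negative controls, and 529.8, at least 4.37-fold lower with erlotinib (mean log2 change -2.41, limma adjusted p = 0.00973). With EGF in H322 LIF was at least 1.41-fold higher. IL6, another gp130 ligand, was lower by 2.13-fold (PC-9) and by 2.75-fold (HCC827) with erlotinib (limma adjusted p = 0.0409), and not above background in H322. IL15 had a mean log2 change of 0.93 ± 0.27 and did not pass (limma adjusted p = 0.163). In HCC827 it was above the negative controls only with erlotinib, and both PC-9 signals were below them.

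Among 29 measured receptors 2 fell and 27 did not pass. IL4R, a receptor chain for interleukins 4 and 13, fell by 0.91 ± 0.16 on the log2 scale (limma adjusted p = 0.0479), with 2413 against 4445 in PC-9 and 1607 against 3062 in HCC827, erlotinib first in each pair. With EGF it was 1.43-fold higher in H322. IL27RA fell by 1.03 ± 0.19 (limma adjusted p = 0.0482), 2.09-fold (PC-9) and 2.01-fold (HCC827). LIFR and IFNGR1 had 0.87 ± 0.26 and 0.68 ± 0.19 and did not pass (limma adjusted p = 0.185 and 0.141). LIFR was below the negative controls in the HCC827 control, so in HCC827 it was at least 2.11-fold higher with erlotinib. IL7R had 602 with erlotinib and 2870 in the control of HCC827, a 4.76-fold lower level. It was below the negative controls in PC-9 and H322 (mean change -1.08, limma adjusted p = 0.377).

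None of the 9 measured JAK and STAT genes passed (limma, over all genes). JAK1, the kinase shared by most cytokine receptors, had 0.71 ± 0.16, with 14767 against 7388 in PC-9 and 20835 against 15497 in HCC827, erlotinib first in each pair (limma adjusted p = 0.0861). STAT3 and TYK2 had 0.39 and 0.41. The STAT5 genes, whose products switch on CISH and SOCS2, had 0.09 for STAT5A and 0.06 for STAT5B, with limma adjusted p of 0.892 and 0.947. STAT6 was above the negative controls in PC-9 and HCC827 and below them in H322.

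Other brakes on the pathway held no call either, with a median log2 change of 0.18 over 9 genes. The phosphatase gene PTPN6 had 0.79 ± 0.21, and the PIAS genes PIAS1 and PIAS2 had 0.49 and -0.73 (limma adjusted p between 0.141 and 0.194). In the ubiquitin ligase that SOCS boxes recruit, none of 8 measured subunits and partners passed, and each of these 8 exceeded the negative controls throughout. UBE2F, which loads the ubiquitin-like NEDD8 on cullin 5, had -0.68 ± 0.18 (limma adjusted p = 0.128), and ELOC, which encodes elongin C, had -0.31.

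Of 28 other measured genes with a SOCS box 1 rose, SPSB3, by 1.09 ± 0.19 (limma adjusted p = 0.0467), which was 1.94-fold (PC-9) and 2.34-fold (HCC827), beside a 1.25-fold lower level with EGF in H322. ASB1 and ASB3 had -0.73 and 0.63 and did not pass, and 16 of the 28 were above the negative controls on no array. Of 21 measured STAT targets 2 fell and none rose. BCL2L1, a survival gene, and VEGFA, an angiogenic factor, fell by 1.23 ± 0.22 and 1.16 ± 0.14 (limma adjusted p = 0.0482 and 0.0182). The other 19 did not pass, among them BCL6 and IRF1 with 1.42 ± 0.29 and 0.88 ± 0.17 (limma adjusted p = 0.0644 and 0.053). BCL6, a repressor, was 4.32-fold higher in HCC827 and 1.66-fold higher in PC-9. No gene of 13 measured substrates and adaptors passed. IGF1R, the IGF receptor gene, was 1.86-fold higher in HCC827, and 1.78-fold in PC-9, (limma adjusted p = 0.0504). INSR, the insulin receptor gene, had 1.39 ± 0.27 (limma adjusted p = 0.0594). Of the INSR signals in that fit, only the one from HCC827 with erlotinib exceeded background. INSR was therefore at least 1.23-fold higher in HCC827, and PC-9 gives no fold. EGFR itself had -0.23.

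**Figure D4:**
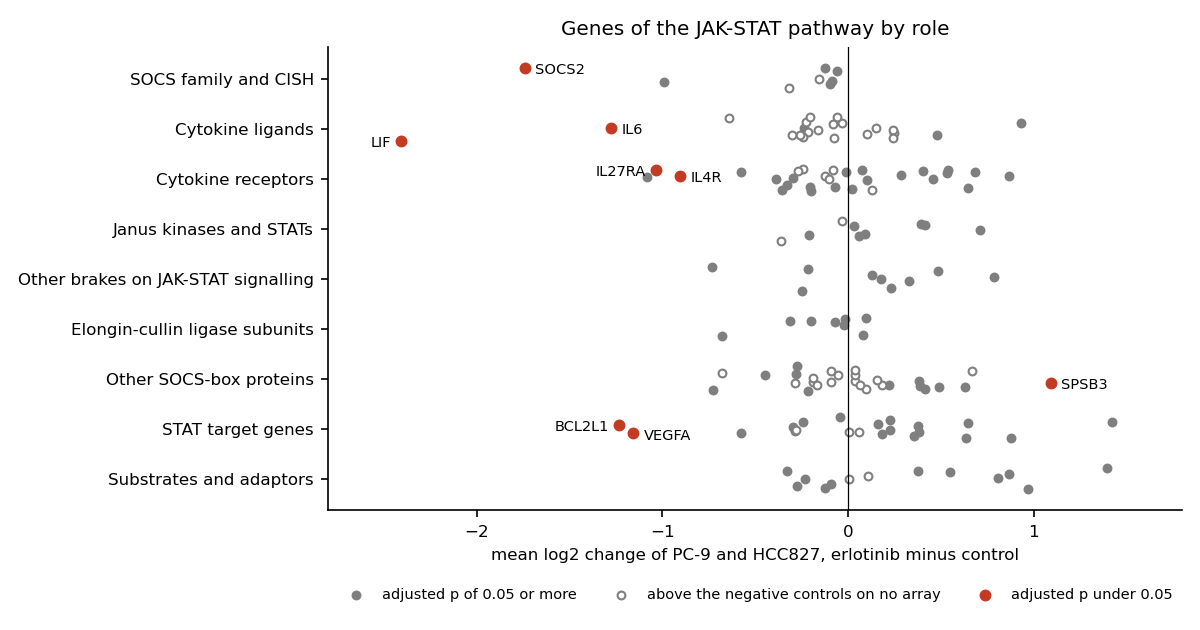
Mean log2 change of PC-9 and HCC827, erlotinib minus control, for the 8 members and for each measured gene of the 8 pathway lists. Red points passed an adjusted p of 0.05 in limma and are named, grey points did not, and open points were above the negative controls on no array: SOCS2 is the red point among the members.

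The epithelial markers EPCAM, KRT8, KRT18, KRT19 and CDH1 exceeded the negative controls on each of the 6 arrays. Of 4 measured leukocyte markers and of 6 measured fibroblast and endothelial markers 3 each were above them on no array and none on all 6. The summed intensity of the leukocyte markers was 424.4 with erlotinib and 392.7 in the control of PC-9, and 141.9 with erlotinib and 165.8 in the control of HCC827. In PC-9 ITGAM alone made up 332.0 with erlotinib and 312.6 in the control of these sums, and PTPRC, CD3E and CD14 were the leukocyte markers above background on no array. Of the fibroblast and endothelial markers COL1A2 exceeded background on 5 arrays, CDH5 on both PC-9 arrays and VWF in HCC827 with erlotinib. Their part in the results was not tested.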

How the data were processed

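Trizol was used to extract total RNA and biotinylated cRNA was prepared from it, per the labels' protocols. The authors deposited 1 linear intensity per probe set and array. The submitters' processing notes name Affymetrix Expression Console, and version, settings and build are not stated in the sources used. Array medians were 147.9 to 157.1. Log2(value + 1) was computed for 24351 probe sets, of which 17709 had 1 gene symbol, 0 several and 6642 none, and the brightest probe set per symbol was kept. A change with an offset understates that of dim genes. A signal not above the 95th percentile of the negative controls has only a bound there, given as "at least".

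Erlotinib was compared with control by limma 3.58.1 (R 4.3.3, statmod 1.5.0, matrixStats 1.5.0) on 4 arrays, cell line as a block, eBayes with a trend, two-sided, Benjamini-Hochberg over all genes at 0.05. The block comes from the cell line: across genes the Pearson correlation of erlotinib and control was 0.991 in PC-9 and 0.988 in HCC827, beside 0.907 between both controls. There is only 1 residual degree of freedom, beside 6.58 prior ones, so the spread comes mostly from other genes. Nothing says that cultures were separate. EGF has no test. For counts at 2-fold the higher signal must reach the median probe set.

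The members and lists were chosen with earlier results of these data known. Named are all members and, per list, genes past the threshold. Others were taken from up to 3 with the largest erlotinib change and up to 2 with the largest EGF change, and not all of these are given. Each exceeded the negative controls somewhere. STAT5A, STAT5B and EGFR were named after their values were seen. The code was tested on simulated data.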

Additional observations from a re-analysis of the deposited data

Results flagged for a closer look

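Erlotinib changes of opposite sign in PC-9 and HCC827 were seen for 4 members. None of these differences was tested, since each line has 1 pair of arrays, and 40.4% of all genes have opposite signs. The PC-9 change minus the HCC827 change was 4.22 on the log2 scale for CISH, with 3 of the 4 signals below the negative controls. For SOCS1 it was 0.84, with all 4 signals below them, and for SOCS7 -0.42, with both PC-9 signals below them. SOCS6 had -0.62 with all 4 signals above them.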

How the results depend on the processing

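SOCS2 was the member called in the erlotinib comparison, and 0 members were called with no trend of the spread, with no replicate block and when dim genes were left out (limma), where 2255, 186 and 1997 genes had an unadjusted p under 0.05. All genes called numbered 262, and 166 with an offset of 16, 954 after quantile normalization, 636 with medians of arrays set equal, 1 with no trend, 0 with no replicate block, 96 with dim genes left out and 1115 where dim signals were set to background. Pathway genes called numbered 7, and in the same order 2, 17, 13, 0, 0, 2 and 20. SOCS7 changed sign in that last setting, to 0.082. Without replicate 1 (PC-9) the change of SOCS2 was -2.19 and without replicate 2 (HCC827) -1.30, with no test. The same ranges ran from -0.58 to 0.27 for SOCS1, -0.40 to 0.22 for SOCS6, -0.27 to 0.15 for SOCS7 and -3.10 to 1.12 for CISH. The 7 members other than SOCS2 kept a limma adjusted p above the threshold in every alternative fit that tested them, the lowest being 0.38 for CISH. In H322 33 genes changed 2-fold with EGF, and 133 with no minimum level. Each member has 1 probe set, so averaging probe sets could give no other value. Dim signals limit SOCS1, SOCS3, CISH, SOCS7 in PC-9 and SOCS2 in H322.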
